A study of Arabidopsis thaliana with 12 samples.

Results

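Strongly root-enriched nuclear genes of Arabidopsis thaliana seedlings are described here across 2 organs and 2 genotypes. Members were chosen by the organ difference: a gene was taken when its probe set was linked to 1 nuclear gene and its mean over the 6 root arrays exceeded its mean over the 6 shoot arrays by at least 4 log2 units; 97 of 16607 single-gene nuclear probe sets met this, each a different gene. The glutathione transferase genes GSTU25 and GSTU22 also met it but were left out by symbol, as were all symbols that start with UGT, CYP, GST, EXP, EXL, XTH, SWEET, WRKY or IAA; a further 11 genes were left out by name, none of which reached the threshold. The organ difference is therefore given without a test. The comparison of genotypes within an organ did not decide which of the 97 were taken. It did enter the names left out, since some were chosen for their fall in root.

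The arrays were Affymetrix Arabidopsis Gene 1.0 ST arrays, each hybridised with RNA of 1 root or shoot sample and called a library below. They formed 4 groups of 3, namely aladin root, Wassilewskija-4 root, aladin shoot and Wassilewskija-4 shoot. Wassilewskija-4 is the wild-type accession, and aladin is the mutant set against it; the labels give neither its allele nor the number of plants in a sample. All seedlings were 10 days old and shared 3 days of stratification and growth at 20 °C under 16 h of light on upright plates with 1% sucrose and 1% agar.

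A root anchors the plant and takes up water and ions, and its outer cells face soil microbes. Many genes with high root transcript levels code for secreted proteins that build or modify cell walls, cut other proteins, or act in defence. The reference names 10 of the 97 beyond their locus number: the beta-glucosidases BGLU21 and BGLU22, the subtilase SBT4.12 and the matrix metalloproteinase MMP, which are both proteases, the defensin-type peptide PDF2.5, the wall glycoprotein HRGP1, the SKU5-similar proteins sks15 and sks16, the MADS-box transcription factor AGL21 and the pirin PRN. The other 87 carry only a locus number there, so no function is given for them. The share with a name, 10.3%, was the same as over all single-gene nuclear probe sets (10.3%).

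Values are RMA signals on the log2 scale. Library medians were 5.86 to 6.0, and libraries correlated across probe sets at 0.983 to 0.993 (Pearson's r) within a group and at 0.873 to 0.893 between organs. With 3 arrays a group, precision is limited by their number. ALADIN (AT3G56900), after which the line is named, read 12.58, 12.73 and 12.75 in the root libraries labelled aladin, against 8.42, 8.40 and 8.36 in Wassilewskija-4 root. In shoot it read 12.41, 12.35 and 12.41 in the libraries labelled aladin, against 7.71, 7.80 and 7.71 in Wassilewskija-4. This is opposite to a lost transcript, so all directions given here refer to libraries as labelled. In the gene lists, measured means linked to a single-gene nuclear probe set. The green tissue list had 9 of its 21 genes measured and the root identity list 3 of its 20. Those 3, EXPA7, EXPA18 and PYK10, were higher in root by 1.76, 2.75 and 1.60 log2 units and so fell short of the threshold.

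The 97 genes were bright in root and moderate to dim in shoot. Their group means had a median of 9.43 in aladin root and 9.60 in Wassilewskija-4 root. In aladin shoot and Wassilewskija-4 shoot the medians were 4.97 and 4.79. Shoot means lay under 3.94, the lower quartile of all group means, for 9 members in aladin and 14 in Wassilewskija-4. The table holds no detection calls, so at such levels signal and background could not be told apart. For every member the lowest root library stood above the highest shoot library, with a smallest gap of 1.75 log2 units.

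The organ difference ran from 4.01 to 8.36 log2 units with a median of 4.52. It reached 5 in 16 genes and 6 in 4, while 48 lay under 4.5. Just inside the threshold stood AT1G56630 (4.008), AT2G40113 (4.010), AT1G30870 (4.020) and AT1G51830 (4.024), and just outside AT3G11385 (3.998), AT5G59490 (3.982), AT1G49310 (3.961) and AT3G19390 (3.946). Taken by genotype, 77 genes reached 4 in aladin, 89 in Wassilewskija-4 and 69 in both.

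AT1G52060 had the largest organ difference, 8.36, or 328-fold. Its signal was 12.03, 12.07 and 12.18 in aladin root and 11.70, 11.83 and 11.61 in Wassilewskija-4 root. In shoot it was 3.91, 3.56 and 3.70 in aladin and 3.57, 3.29 and 3.24 in Wassilewskija-4, so that the organs were far apart in both genotypes. The next were AT5G54370 (6.44), AT3G54580 (6.36), AT3G28550 (6.33) and AT1G52070 (5.82). AT5G54370 was among the steadiest, between 10.57 and 10.73 in all 6 root libraries and between 3.96 and 4.46 in all 6 shoot libraries. AT3G28550 was uneven in shoot, with 5.69, 5.04 and 5.56 in aladin and 5.65, 4.15 and 4.27 in Wassilewskija-4.

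**Figure D1:**
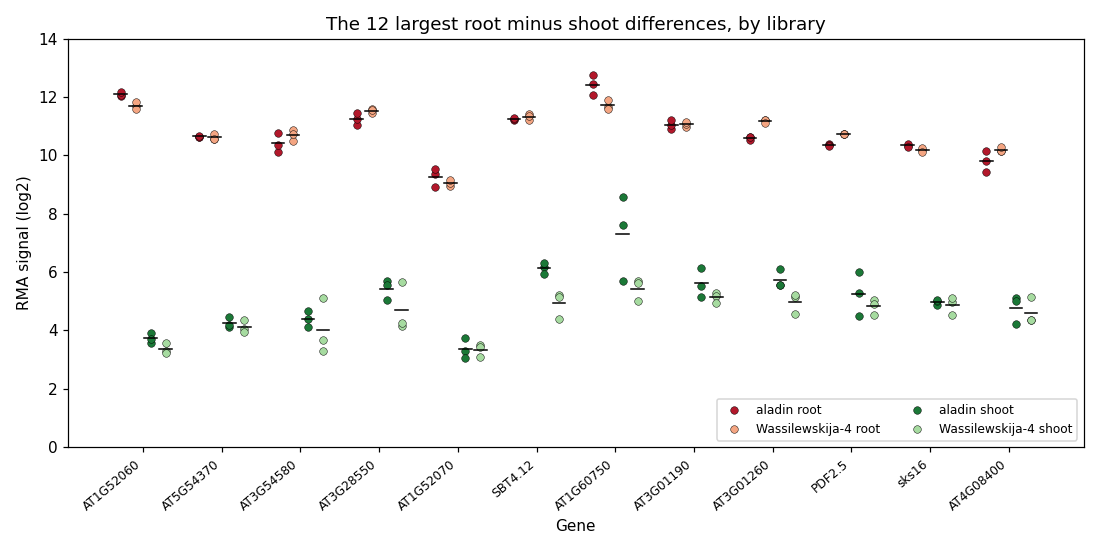
RMA signal (log2, vertical axis) of the 12 genes with the largest root minus shoot difference, in the order of that difference from left to right. Points are single libraries (3 per group) and black bars are group means; all root libraries lie above all shoot libraries, and AT1G60750 spreads from 5.71 to 8.58 in aladin shoot.

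Among the proteases, SBT4.12, a subtilisin-like serine protease, had an organ difference of 5.75. It read 11.20, 11.24 and 11.27 in aladin root and 11.43, 11.21 and 11.36 in Wassilewskija-4 root, which overlapped. MMP, of the zinc-dependent metalloproteinases that cut proteins outside the cell, had a difference of 4.88. Its root signal was 10.00, 10.15 and 10.20 in aladin and 9.46, 9.46 and 9.40 in Wassilewskija-4, without overlap. That difference of 0.68 (SE 0.20) did not pass the test over all genes and libraries (adjusted p = 0.0600 by limma).

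Of the wall and cell-surface genes, sks16 and sks15 (organ differences 5.35 and 4.84) resemble SKU5, a surface glycoprotein that affects the direction of root growth. Root means of sks16 were 10.34 ± 0.06 in aladin and 10.18 ± 0.07 in Wassilewskija-4 (SD, n = 3 each). HRGP1, a hydroxyproline-rich glycoprotein of the kind laid down in cell walls, had an organ difference of 4.15 and the largest root spread of all 97 genes. It read 7.08, 8.23 and 8.18 in aladin root and 8.33, 8.08 and 8.47 in Wassilewskija-4 root, where aladin root replicate 1 was the low library. Its direct neighbour AT3G54580 had a difference of 6.36, and its lowest root library was also aladin root replicate 1 (10.13).

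PDF2.5, a small cysteine-rich peptide of the defensin type, had an organ difference of 5.50. Its root signal was 10.38, 10.37 and 10.33 in aladin and 10.74, 10.72 and 10.74 in Wassilewskija-4, a clear step between 2 tight groups. In shoot it ranged from 4.5 to 5.99 in aladin and from 4.53 to 5.05 in Wassilewskija-4. Its root difference of -0.37 had an SE of 0.28 in the fit over both organs (adjusted p = 0.531) and of 0.06 in a fit on the root libraries alone (adjusted p = 0.0121). The regulators were AGL21, a MADS-box factor of lateral root development, and PRN, a pirin of the cupin fold. AGL21 (organ difference 4.2) had root means of 8.71 ± 0.14 in aladin and 8.71 ± 0.10 in Wassilewskija-4 (SD, n = 3 each). PRN (4.18) is taken up with the genes that fell in root.

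BGLU21 and BGLU22, adjacent genes for beta-glucosidases of the endoplasmic reticulum bodies of roots, had organ differences of 5.02 and 4.52. BGLU21 read 11.99, 11.81 and 11.68 in aladin root against 12.00, 12.12 and 12.01 in Wassilewskija-4 root, and BGLU22 lay between 10.75 and 10.98 in all 6. The spread of BGLU21 in Wassilewskija-4 shoot, 7.54, 6.67 and 5.62, was the widest of any member in that group. Neither gene passed a genotype test in either organ (adjusted p from 0.432 to 0.844 by limma). PYK10, a related beta-glucosidase in the same list, had means of 13.78 and 13.81 in aladin and Wassilewskija-4 root and 12.28 and 12.12 in aladin and Wassilewskija-4 shoot. The third member in that list of 8, of which 5 were measured, was AT3G12900.

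Of the 97 genes, 14 in 6 runs lay directly beside another member in the order of protein-coding genes in the reference. No such count over other genes is given here, so it cannot be read as particular to the members. The runs were AT1G51830 with AT1G51840, AT1G52050 with AT1G52060 and AT1G52070, BGLU21 with BGLU22, AT3G23175 with AT3G23180 and AT3G23190, AT3G54580 with HRGP1, and AT5G26290 with AT5G26300. Neighbours are often copies of each other, and whether their probes bind each other's transcripts was not tested. All 97 were protein-coding. Their median gene length was 1855 bp, against 1915 bp over all single-gene nuclear probe sets, and 68.0% had 1 reference transcript, against 62.8% of the protein-coding ones. Chromosome 3 held 28 members (28.9%, against 20.5% of all single-gene nuclear probe sets), chromosome 1 held 22, chromosome 5 held 18, chromosome 4 held 15 and chromosome 2 held 14.

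The root comparison asked which of these genes differ between aladin and Wassilewskija-4 in the organ where they are strong. In the root libraries labelled aladin 11 of the 97 fell and 2 rose by limma over all 4 groups, at an adjusted p of 0.05, and 84 did not pass. Falls made up 3.01% and rises 4.63% of all 17481 tested probe sets, against 11.3% and 2.06% of the members. The median difference was -0.20 log2 units for the members and -0.04 for all tested probe sets, and 66 of 97 values were below 0 (58.2% of all tested). Without aladin root replicate 1 the members' median was -0.13. The balance of calls among the members depended on how the spread was estimated. With a trend and robust prior 15 fell and 8 rose, and with array weights 20 fell and 12 rose. The shares of all tested probe sets under these settings are not given here, so these counts cannot be read as particular to the members.

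The largest movement was the rise of AT2G43610. It read 10.82, 10.87 and 10.72 in aladin root against 9.27, 9.38 and 9.12 in Wassilewskija-4 root, a difference of 1.54 (SE 0.14, 2.92-fold, adjusted p = 3.5e-05). In shoot its values overlapped, at 5.19, 5.23 and 5.23 in aladin and 5.69, 5.64 and 5.09 in Wassilewskija-4. AT5G38910 was the other rise and the 1 member that passed in both organs. Its root signal was 10.95, 11.16 and 11.12 in aladin against 9.77, 10.19 and 9.85 in Wassilewskija-4, a difference of 1.14 (SE 0.22, adjusted p = 0.00641). In shoot it read 5.69, 6.60 and 6.20 in aladin against 4.89, 5.50 and 5.01 in Wassilewskija-4, a difference of 1.03 (SE 0.22, adjusted p = 0.0280). The groups did not overlap in either organ. Both root calls passed in all 12 omissions of a single library. The shoot call of AT5G38910 ended without aladin shoot replicate 2 (0.0677) or 3 (0.0766) or Wassilewskija-4 shoot replicate 1 (0.0774) or 3 (0.0779), and in the shoot libraries alone (0.177).

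AT3G51540 had the smallest p among the falls. It read 9.42 ± 0.08 in aladin root and 10.16 ± 0.13 in Wassilewskija-4 root (SD, n = 3 each), a difference of -0.74 (SE 0.12, adjusted p = 0.00242). AT1G66800 followed, at 7.10 ± 0.16 in aladin and 8.02 ± 0.15 in Wassilewskija-4 (SD, n = 3 each; difference -0.92, SE 0.18, adjusted p = 0.00675). These calls also passed in all 12 omissions. AT3G12900 had the largest fall, with 9.90, 9.31 and 9.10 in aladin root against 10.68, 10.36 and 10.44 in Wassilewskija-4 root (difference -1.06, SE 0.25, adjusted p = 0.0222). Its aladin libraries were spread but all below the wild type. In shoot the same gene read 6.49, 5.48 and 5.89 in aladin against 5.37, 4.95 and 5.08 in Wassilewskija-4, a difference of 0.82 (SE 0.25, adjusted p = 0.111). The AT3G12900 root call ended without aladin root replicate 2 (0.0860) or 3 (0.0975) or Wassilewskija-4 root replicate 1 (0.0911) or 3 (0.0629).

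PRN fell to 8.30, 8.45 and 8.56 in aladin root, against 9.02, 9.06 and 9.27 in Wassilewskija-4 root (difference -0.68, SE 0.17, adjusted p = 0.0303). AT1G30870 fell by 0.51 (SE 0.12, adjusted p = 0.0180), AT5G06630 by 0.81 (SE 0.19, adjusted p = 0.0184), AT1G31950 by 0.34 (SE 0.08, adjusted p = 0.0252) and AT2G23540 by 0.36 (SE 0.09, adjusted p = 0.0272). None of these 5 genes had overlapping root groups. Their calls rested on full groups: that of PRN ended without any 1 of the 6 root libraries (adjusted p 0.0563 to 0.123). The AT1G30870 call ended without any root library except Wassilewskija-4 root replicate 2 (0.0555 to 0.0839), that of AT5G06630 without any except aladin root replicate 3 (0.0549 to 0.0776), that of AT1G31950 without any except Wassilewskija-4 root replicate 1 (0.0557 to 0.117) and that of AT2G23540 without any except aladin root replicate 3 (0.0631 to 0.104). The 3 remaining falls, AT4G28940 (-0.44), AT3G29410 (-0.69) and AT5G13900 (-0.67), had adjusted p values of 0.0407, 0.0463 and 0.0470. Each of these 3 ended without any 1 root library and without 2 of the shoot libraries, one of them Wassilewskija-4 shoot replicate 2 and the other aladin shoot replicate 1 for AT4G28940 and aladin shoot replicate 3 for the others (0.0501 to 0.152). Under at least 1 other normalization of the arrays the calls of AT2G23540, AT4G28940, AT3G29410 and AT5G13900 ended (0.0501 to 0.0987). With all probe sets of the table tested those of PRN, AT4G28940, AT3G29410 and AT5G13900 ended (0.0547 to 0.0801). With a replicate block within organ those of AT1G30870, AT1G31950, AT2G23540, PRN, AT4G28940 and AT5G13900 ended (0.0548 to 0.109). A replicate block across all groups ended those of PRN, AT4G28940 and AT5G13900 (0.0506 to 0.0704).

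**Figure D2:**
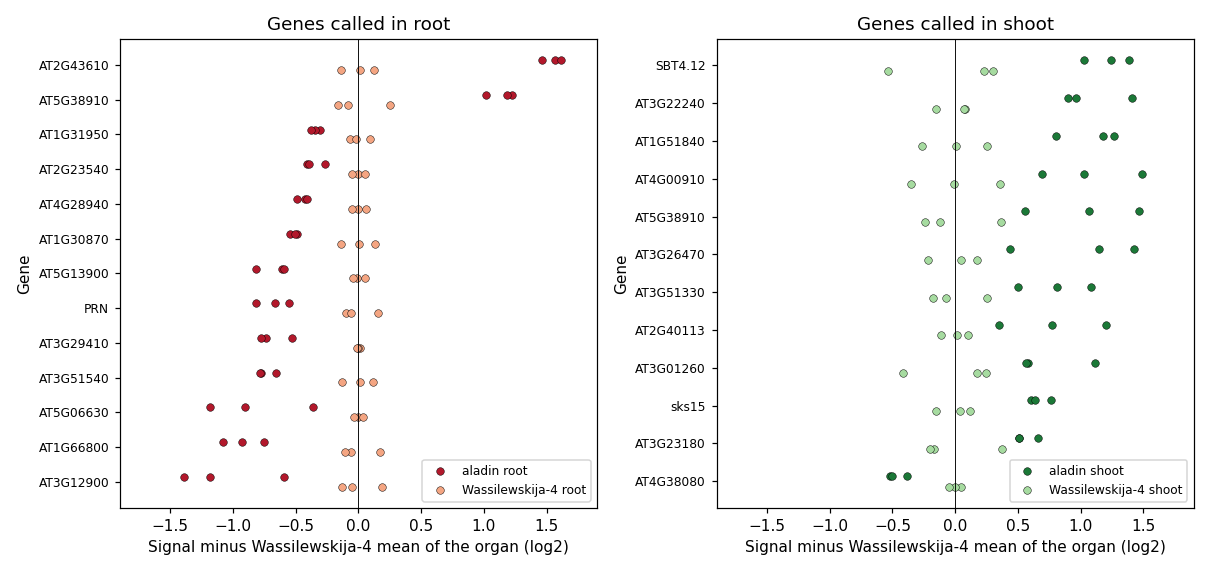
Signal of each library minus the Wassilewskija-4 mean of the organ (log2, horizontal axis) for the 13 members called in root (left) and the 12 called in shoot (right), ordered by the genotype difference; points are single libraries. The libraries labelled aladin lie apart from the Wassilewskija-4 libraries for each gene shown, to the left for 11 genes in root and to the right for 11 genes in shoot.

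The spread of these genes differed between organs, which bears on the counts. The median SD between replicates was 0.11 in aladin root and 0.08 in Wassilewskija-4 root, but 0.29 in aladin shoot and 0.26 in Wassilewskija-4 shoot; over all tested probe sets it was 0.11, 0.10, 0.14 and 0.15 in the same order of groups. The spread was larger in shoot than in root for 92 of the 97 (69.7% of all tested). One estimate of the spread per gene over both organs is therefore too wide for the root values of most members and too narrow for their shoot values. With a fit on the root libraries alone, 26 members fell and 11 rose, against 4.61% and 5.65% of all tested probe sets, and all 13 genes called over both organs were among them. The root groups did not overlap for 46 members that were lower and 21 that were higher in aladin, where 18.3% and 13.4% of all tested probe sets did so.

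Among the 24 genes added by the root libraries alone, named here after their values were seen, were MMP (0.68, SE 0.08, adjusted p = 0.00185), PDF2.5 (-0.37) and AT3G01260. AT3G01260 read 10.62, 10.53 and 10.63 in aladin root against 11.21, 11.22 and 11.11 in Wassilewskija-4 root (difference -0.59, SE 0.07, adjusted p = 0.00248 in that fit and 0.0690 over both organs). AT3G49960 (-0.76, adjusted p = 0.00475) and AT5G12880 (0.72, adjusted p = 0.00267) were of the same kind. AT1G52060, the most root-enriched gene, was higher in aladin root by 0.38 (adjusted p = 0.0307 in that fit and 0.0704 over both organs).

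The shoot comparison asked the same in the organ where these genes are weak. In the shoot libraries labelled aladin 11 of the 97 rose and 1 fell by limma over all 4 groups, and 85 did not pass. Rises made up 1.49% and falls 1.47% of all tested probe sets, against 11.3% and 1.03% of the members. The members' median was 0.17, against -0.02 for all tested probe sets, and 64 of 97 values were above 0 (45.6% of all tested). That median was 0.07 without aladin shoot replicate 3 or without Wassilewskija-4 shoot replicate 3, and 0.28 without Wassilewskija-4 shoot replicate 1. In a fit on the shoot libraries alone 1 member passed, AT3G22240 (1 higher and 0 lower, against 0.229% and 0.103% of all tested), with 23 members (23.7%) at an unadjusted p under 0.05, against 11.9% of all tested probe sets. The other 11 had adjusted p values of 0.0719 to 0.242 there. In bulk tissue, a change in the number of expressing cells and a change in RNA per cell cannot be told apart.

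AT3G22240 rose to 7.40, 7.34 and 7.85 in aladin shoot, against 6.52, 6.29 and 6.51 in Wassilewskija-4 shoot, a difference of 1.09 (SE 0.13, adjusted p = 0.00158, and 0.0472 in the shoot libraries alone). Its root groups overlapped, with 10.95, 11.15 and 11.26 in aladin and 11.18, 11.28 and 11.21 in Wassilewskija-4. SBT4.12 read 6.17, 5.95 and 6.31 in aladin shoot against 5.23, 5.16 and 4.39 in Wassilewskija-4 shoot, a difference of 1.21 (SE 0.18, adjusted p = 0.00580). The protease gene was thus higher in all 3 aladin libraries in shoot, beside overlapping groups in root. AT1G51840 rose to 5.90, 5.53 and 5.99, against 4.98, 4.73 and 4.46 in Wassilewskija-4 shoot (difference 1.08, SE 0.15, adjusted p = 0.00313). Its neighbour AT1G51830 had a shoot difference of 0.21 (adjusted p = 0.495). The surface protein gene sks15 rose to 5.37, 5.53 and 5.40, against 4.80, 4.61 and 4.88 (difference 0.67, SE 0.10, adjusted p = 0.00566), whereas sks16 had a difference of 0.10 (adjusted p = 0.758). In the shoot libraries alone the adjusted p was 0.103 for SBT4.12, 0.0719 for AT1G51840 and 0.0761 for sks15.

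AT4G00910 rose by 1.07 (SE 0.20, adjusted p = 0.0160), AT3G51330 by 0.80 (SE 0.14, adjusted p = 0.0142) and AT3G26470 by 1.00 (SE 0.21, adjusted p = 0.0281), all without overlap between the shoot groups. The calls of AT4G00910 and AT3G51330 ended without Wassilewskija-4 shoot replicate 2 (0.0532 for each) and in the shoot libraries alone (0.159 and 0.150). That of AT3G26470 ended without aladin shoot replicate 1 (0.0865) or 3 (0.0788) or Wassilewskija-4 shoot replicate 2 (0.0876) or 3 (0.0637), and in the shoot libraries alone (0.185). AT2G40113 was dim, at 4.25, 3.83 and 4.68 in aladin shoot against 3.58, 3.36 and 3.49 in Wassilewskija-4 shoot (difference 0.78, adjusted p = 0.0290). Its call ended without aladin shoot replicate 1 (0.0743) or 3 (0.0534), without Wassilewskija-4 shoot replicate 2 (0.0868) or 3 (0.0677), and in the shoot libraries alone (0.204). AT3G01260 (0.75) and AT3G23180 (0.56) both had an adjusted p of 0.0437. Each lost its call without any 1 of 11 libraries, the exception being Wassilewskija-4 shoot replicate 3 for AT3G01260 (0.0609 to 0.102) and Wassilewskija-4 shoot replicate 2 for AT3G23180 (0.0627 to 0.116), and in the shoot libraries alone (0.242 for each). With all probe sets of the table tested, the shoot calls of AT5G38910, AT3G26470, AT2G40113, AT3G23180 and AT3G01260 ended (0.0510 to 0.0727). The same calls ended with array weights (0.0564 to 0.0821). Those of AT3G23180 and AT3G01260 also ended under each other normalization (0.05 to 0.0695), and passed under 3 and 2 of 10 other settings. With a replicate block within organ the shoot calls of AT3G51330, AT4G00910, AT4G38080, AT3G23180 and AT3G01260 ended (0.054 to 0.0764).

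AT4G38080 was the 1 gene that fell. It read 7.47, 7.49 and 7.61 in aladin shoot against 8.04, 7.99 and 7.94 in Wassilewskija-4 shoot (difference -0.47, SE 0.08, adjusted p = 0.0114, and 0.136 in the shoot libraries alone). AT1G60750 had the largest difference of any member, 1.88, but did not pass (SE 0.53, adjusted p = 0.0889). Its shoot values were 7.63, 5.71 and 8.58 in aladin against 5.0, 5.68 and 5.61 in Wassilewskija-4, and aladin shoot replicate 2 was close to the wild type.

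**Figure D3:**
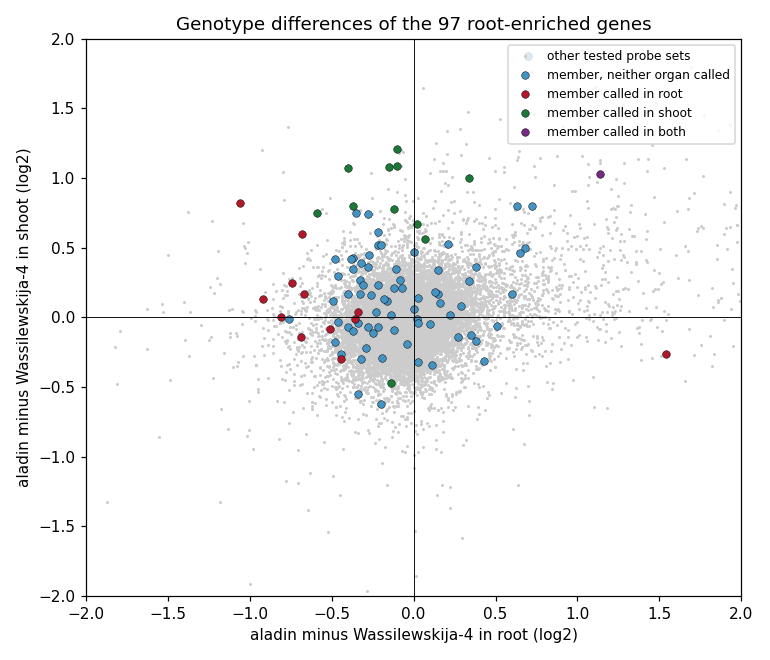
Difference between aladin and Wassilewskija-4 in root (horizontal) and in shoot (vertical), in log2 units, for the 97 root-enriched genes (coloured by the organ in which limma called them) over all other tested probe sets (grey; 38 lie outside the plotted range, none of them a member). The upper left area, lower in root and higher in shoot, holds 44 members.

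The difference of the genotype effects, root minus shoot, passed for 11 members by limma. It was below 0 for 10 and above 0 for 1, against 0.715% and 1.43% of all tested probe sets. By sign alone, 44 genes were lower in aladin root and higher in aladin shoot, where 22.3% of all tested probe sets were so. Another 22 were lower in both (35.9% of all tested), 20 higher in both (23.3%), and 11 higher in root and lower in shoot (18.5%). The genotypes overlapped in neither organ, with aladin lower in root and higher in shoot, for 4 members (4.12%, against 0.698% of all tested). AT3G12900 had the lowest value, -1.87 (SE 0.35, adjusted p = 0.0184), followed by AT4G00910 (-1.47), AT3G01260 (-1.34), SBT4.12 (-1.31) and PRN (-1.28). In terms of organs, SBT4.12 was higher in root than in shoot by 5.10 in aladin and by 6.41 in Wassilewskija-4. AT2G43610 had the 1 positive value, 1.80 (SE 0.20, adjusted p = 6.3e-04). Of the 11 calls, 5 passed in all 12 omissions of a library: AT1G51840, AT2G43610, AT3G51540, AT3G22240 and AT3G51330. Of these 5, the call of AT3G51330 ended with a replicate block within organ (0.0752).

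The other 6 differences of effects ended without at least 1 library. Without Wassilewskija-4 root replicate 1 these were AT3G12900 (0.0543), AT4G00910 (0.0521), SBT4.12 (0.0707) and sks15 (0.0995). Without Wassilewskija-4 root replicate 3 they were PRN (0.0561), AT4G00910 (0.0548), SBT4.12 (0.0660) and sks15 (0.0537), and without aladin root replicate 2 AT3G12900 (0.0533), AT3G01260 (0.0506) and SBT4.12 (0.0622). The calls of SBT4.12 and sks15 also ended without aladin root replicate 1 (0.0579 and 0.0917) or 3 (0.0578 and 0.0951) and without aladin shoot replicate 1 (0.0528 and 0.0571) or 3 (0.0584 and 0.0679). That of sks15 ended besides without Wassilewskija-4 root replicate 2 (0.0965), aladin shoot replicate 2 (0.0750) and Wassilewskija-4 shoot replicate 1 (0.0666) or 2 (0.0746). With all probe sets of the table tested both calls ended (0.0556 for SBT4.12 and 0.0689 for sks15). With a replicate block within organ the calls of PRN, AT4G00910, SBT4.12 and sks15 ended (0.0597 to 0.107). The sks15 call also ended with array weights (0.0658) and with a replicate block across all groups (0.0726).

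Shares of calls are given by band of the organ difference, first without the 172 probe sets that the rule leaves out by name or symbol. In the band of 2 to 3 log2 units, with 415 genes, 15.2% were higher and 10.8% lower in aladin root. From 3 to 4 (186 genes) these were 11.3% and 14%, and from 4 to 5 (81 genes) 2.47% and 12.3%. At 5 and above 0 of 16 were higher and 1 lower in root. In shoot, genes higher in aladin made up 9.40%, 8.06%, 9.88% and 18.8% of these 4 bands in the same order (the last being 3 of 16), and genes lower made up at most 2.41%. Between -2 and 2 log2 units 3.70% of 15116 genes were higher and 2.50% lower in aladin root. On the shoot side these shares were 6.56% and 3.93% from -3 to -2 (305 genes) and 6.94% and 3.47% from -4 to -3 (173 genes). At -4 and below (143 genes) they were 27.3% and 0.699%. Those left out by name include AT5G14650, AT1G52820 and AT4G12170, with organ differences of 2.26, 2.25 and 2.63 and root genotype differences of -4.73, -2.55 and -2.03. With no gene left out, a setting added after the values were seen, 14.6% were higher and 12.1% lower in aladin root in the band of 2 to 3, 11.5% and 14.6% from 3 to 4, and 3.61% and 12% from 4 to 5. These shares are descriptive, and the difference between bands was not tested.

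**Figure D4:**
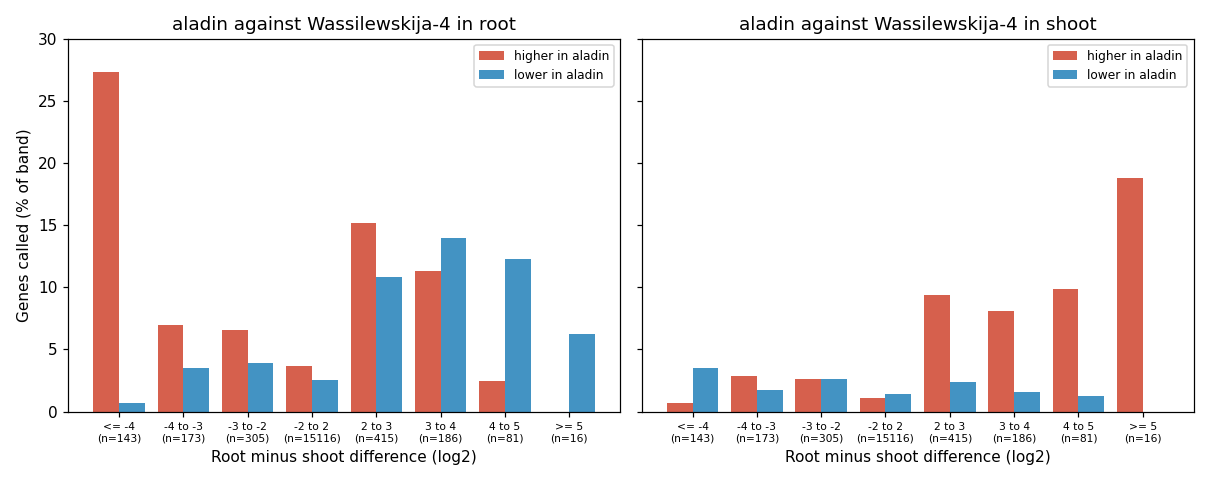
Share of single-gene nuclear probe sets (percent, vertical axis) called higher or lower in aladin by limma, in root (left) and shoot (right), by band of the root minus shoot difference (log2, horizontal axis; n under each band). Genes left out by name or symbol are not in the bands; the 97 root-enriched genes are the 2 bands at the right, where lower calls lead in root and higher calls lead in shoot.

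Genes of the other organ were measured beside the members. For 144 nuclear genes that exceeded root by 4 log2 units or more in shoot, the median signal per library was 4.83 to 5.06 in aladin root and 4.42 to 4.5 in Wassilewskija-4 root, and aladin root replicate 1 was the highest. The summed linear signal of the 9 measured green tissue genes was 931.3 to 1298 in aladin root and 776.8 to 829.2 in Wassilewskija-4 root, with aladin root replicate 1 again highest. On the log2 scale, which weights the 9 genes equally, their mean overlapped, at 5.86, 5.49 and 5.31 in aladin root and 5.46, 5.46 and 5.43 in Wassilewskija-4 root. Of the 9 genes, 2 rose (RCA and SBPASE), 1 fell (PSBY), and RMA values have no true 0. The members' median per library was 9.39 to 9.48 in aladin root and 9.55 to 9.63 in Wassilewskija-4 root. The part of green tissue signal in the falls of the members was not tested.

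The number of members above their group mean varied between libraries. No share of all tested probe sets is given for it, so it cannot be read as particular to the members. In Wassilewskija-4 shoot replicate 1, 73 of the 97 lay above their group mean, against 50 in replicate 2 and 24 in replicate 3. The numbers were 40, 37 and 66 in aladin shoot replicates 1, 2 and 3. In root they were 32, 53 and 57 in aladin replicates 1, 2 and 3, and 39, 50 and 59 in Wassilewskija-4. The members' median deviation from the group mean was -0.05 to 0.03 in the root libraries and -0.13 to 0.19 in the shoot libraries. Their summed linear signal was 4082, 3802 and 4929 in the aladin shoot libraries and 3944, 3403 and 3099 in the Wassilewskija-4 shoot libraries, against 93440 to 103700 in root. The aladin and Wassilewskija-4 ranges overlapped. The mean log2 signal of the 9 green tissue genes was 9.41, 9.42 and 9.44 in the aladin shoot libraries and 9.63, 9.63 and 9.70 in the Wassilewskija-4 shoot libraries, without overlap, while their summed linear signal overlapped, at 15390 to 16100 in aladin and 15970 to 16580 in Wassilewskija-4. Of the 9, MUTE and SPCH, transcription factors of stomatal development, fell in aladin shoot, and none rose. MUTE fell by 0.93 (adjusted p = 0.0437 by limma) and SPCH by 0.82 (adjusted p = 0.0369 by limma). The others did not pass: PORB (-0.29), FMA (-0.1), LHCB4.1 (-0.07), RCA (-0.01), SBPASE (0.03), LHCB4.2 (0.05) and PSBY (0.06). The part of these 9 genes in the rises of the members was not tested.

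**Figure D5:**
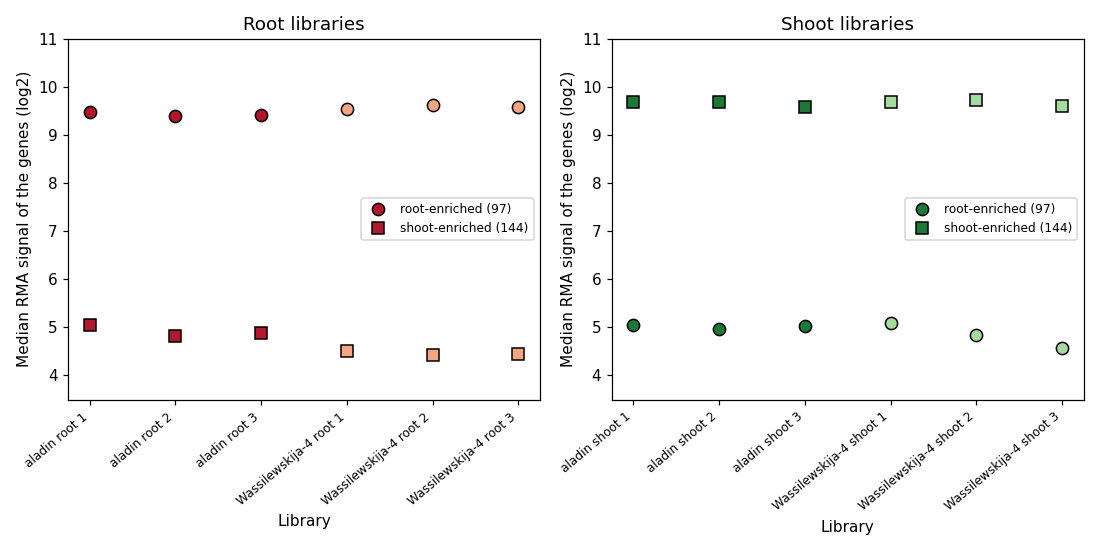
Median RMA signal (log2, vertical axis) of the 97 root-enriched genes (circles) and of the 144 shoot-enriched genes (squares) in each root library (left) and shoot library (right). In root the circles are 9.39 to 9.48 in aladin and 9.55 to 9.63 in Wassilewskija-4, and the squares are 4.83 to 5.06 and 4.42 to 4.5.

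Most genes of the other root lists were not measured and so could not be members. Whether they are strongly root-enriched cannot be read from this overlap. Besides the list of endoplasmic reticulum bodies and coumarins, with 3 members, none of the lists held a member: root hair (2 of 19 measured), Casparian strip and suberin (1 of 20), triterpene clusters (2 of 10), root meristem, cap and lateral root (4 of 16) and nutrient and water uptake (0 of 24). The 2 measured root hair genes, EXPA7 and EXPA18, carry symbols that the rule leaves out, and they also fell short of the threshold. In these lists 1 measured gene passed, AT5G47950 of the triterpene clusters, which rose in shoot by 0.72 (SE 0.13, adjusted p = 0.0130). In the list of endoplasmic reticulum bodies and coumarins AT3G12900 alone passed, as a fall in root. A further 93 of the 20927 probe sets with no named gene were also at least 4 log2 units higher in root, and these were not analysed here as genes.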

How the data were processed

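Total RNA of 12 samples was hybridised to 1-colour arrays. The deposited values are log2 signals from RMA (background correction, normalization and summary by probe set), a method named in the submitters' processing notes; its software and version are not given there. Of 38408 probe sets, 17481 were linked to a named gene by the platform's annotation (16722 to exactly 1) and were tested; 16574 of the single-gene ones were found in the RefSeq table of TAIR10.1.

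Groups came from the titles. R 4.3.3 and limma 3.58.1 fitted group means to all 12 arrays (lmFit, eBayes; 8 residual and 3.67 prior degrees of freedom), with p values adjusted over the 17481 probe sets by the Benjamini-Hochberg method and called at 0.05. No block was used. Deviations of same-numbered libraries correlated at -0.06 to 0.10 in 18 pairs, so the numbers were not taken as pairs. The labels call the replicates biological without saying what was grown separately, so p values measure the spread between these samples. The procedure was tested on simulated data. Python 3.11.15 and matplotlib 3.10.9 drew the figures.

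Members and lists were chosen with earlier results of these data known. Genes named were the 12 largest organ differences, 4 on each side of the threshold, up to 8 calls per organ and direction, up to 5 highest and lowest differences of effects, up to 4 members per list, the 3 largest root SDs and calls in both organs. Product classes were not formed, since the reference used gives no product names. Also named, with values seen, were members with a gene symbol, neighbours, the remaining calls and some genes called in the root libraries alone. Alternatives changed the prior, the filter, the tested probe sets, the normalization, weights, blocks, the organs fitted, the membership rule and the minimum fold, and left out each library.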

Additional observations from a re-analysis of the deposited data

Results flagged for a closer look

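For 11 genes the test of the difference between the genotype effects in root and shoot passed by limma, which is why they are listed; values are root minus shoot, in log2 units. Below 0 were AT3G12900 (-1.87), AT4G00910 (-1.47), AT3G01260 (-1.34), SBT4.12 (-1.31), PRN (-1.28), AT1G51840 (-1.23), AT3G22240 (-1.20), AT3G51330 (-1.17), AT3G51540 (-0.99) and sks15 (-0.65). Above 0 was AT2G43610 (1.80). For AT3G22240, AT1G51840, SBT4.12 and sks15 the root groups overlapped and the shoot groups did not. In AT3G51540 and AT2G43610 the root groups did not overlap and the shoot difference did not pass (adjusted p = 0.309 and 0.371).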

How the results depend on the processing

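Counts of members called were 13 in root, 12 in shoot and 11 for the difference of effects. In root, with 2 higher and 11 lower, the count was 23 with a trend and robust prior (8 higher, 15 lower), 32 with array weights (12 and 20), 37 in the root libraries alone (11 and 26) and 8 with a replicate block within organ (3 and 5). In shoot it was 7 with all probe sets tested, 7 with array weights and 1 in the shoot libraries alone. The difference of effects gave 6 with a replicate block within organ. Except for the main fit and the fits on 1 organ, these counts stand without the share of all tested probe sets. They cannot be read as particular to the members. Array weights were 0.944 to 2.45 for root and 0.641 to 0.808 for shoot libraries. With a threshold of 3 log2 units (283 genes) the counts were 60, 30 and 30, and with 5 (16 genes) 1, 3 and 3, with a shoot median of 0.40. Members taken from wild-type arrays only gave 20 in root (1 and 19); that choice uses the Wassilewskija-4 root values of the comparison itself, favours falls and checks nothing. A 2-fold minimum gave 3 in root and 5 in shoot. The settings of membership and fold change which genes can be counted; for the others the cause was not tested. Of 38 named calls, ALADIN's included, 16 passed in every omission and 15 under every other setting.

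With a replicate block across all groups the counts were 10, 12 and 10. In 15 of 36 comparisons a library correlated best with its own number.

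Leaving out 1 of the 12 libraries gave 4 to 21 in root, 7 to 14 in shoot and 7 to 18 for the difference of effects. Root counts were 5, 4 and 7 without aladin root replicates 1, 2 and 3, 5, 6 and 4 without Wassilewskija-4 root replicates 1, 2 and 3, and 21 without aladin shoot replicate 2. Shoot counts were 7 without aladin shoot replicate 3 or Wassilewskija-4 shoot replicate 2. The difference of effects gave 7 without Wassilewskija-4 root replicate 1 or 3 and 18 without aladin shoot replicate 2. The medians ran from -0.21 to -0.13 in root and from 0.07 to 0.28 in shoot. Under these omissions and the other settings, 0 of the named calls changed sign.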
